A study of Homo sapiens with 3 samples.

Results

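The clade B serpins are a family of protease inhibitors of the ovalbumin type, and 10 of their genes are described here across 3 cultures of HaCaT, a keratinocyte line from human skin that became immortal without a viral gene. The genes are SERPINB1, SERPINB2, SERPINB3, SERPINB4, SERPINB5, SERPINB7, SERPINB8, SERPINB9, SERPINB12 and SERPINB13. They were chosen by the gene name in the array annotation and make up 10 of 23595 named genes, read by 19 of 42947 named transcripts with 3 probes each. The groups were cells given 1 µM all-trans retinoic acid together with nicotinamide (ATRA+NIC), cells given 1 µM all-trans retinoic acid (ATRA), and cells given neither (control), all for 36 h. Retinoic acid is the active metabolite of vitamin A, and nicotinamide is the amide form of vitamin B3. The nicotinamide dose was not found in the labels, and no array held cells given nicotinamide alone. All cultures were of 1 cell line, grown with fetal bovine serum. Total RNA of each group was hybridised to 1 single-colour NimbleGen array, so no difference has an error between cultures and no test between groups was possible.

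A serpin inhibits by offering a reactive loop as bait: the protease cuts it, stays bound, and is trapped as the serpin changes shape. Clade B members lack a classical signal peptide and act mostly inside cells, although several also leave the cell. In the epidermis they are known for restraining proteases of desquamation, inflammation and cell death. Inherited loss of SERPINB7 underlies a palmoplantar keratosis and loss of SERPINB8 a peeling skin disorder in humans. SERPINB3 and SERPINB4 are the squamous cell carcinoma antigens.

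The arrays were alike in overall signal, with median transcript intensities from 298 to 302. Random probes, designed to match nothing, read 18.4 to 19.6. The 15 keratinocyte markers measured were all above 50 on every array, and their summed intensity was 160026 with ATRA+NIC, 170142 with ATRA and 201587 in control cells. Their median log2 intensity was 12.9 on every array. Against control, 8 of the 15 were lower and 7 higher with ATRA, with a median log2 difference of −0.06. With ATRA+NIC 11 were lower and 4 higher than in control cells, with a median of −0.37. Over all genes these medians were −0.03 and 0.00. The retinoic acid degrading enzyme gene CYP26A1 had intensities of 595 with ATRA+NIC, 342 with ATRA and 77.3 in control cells, so both retinoid-treated cultures were above the control. Of markers of leukocytes, 14 were measured, and their summed intensity was 3273 with ATRA+NIC, 5505 with ATRA and 2866 in control cells. Most of that sum came from CD68, a lysosomal protein gene of macrophages that other cells also express, with intensities of 2339, 3399 and 1774 in the same order.

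Of the 10 serpin genes, 6 reached the filter on low levels, which asked for a gene level (the mean log2 intensity of its transcripts) of at least 7.95 on 1 array, an intensity of 247. These were SERPINB1, SERPINB2, SERPINB5, SERPINB7, SERPINB8 and SERPINB13. SERPINB3, SERPINB4, SERPINB9 and SERPINB12 stayed below it on all arrays, and 4 of the 19 transcripts were under an intensity of 50 on every array. A difference was called when it was at least 2-fold on the gene level. The spread of transcripts of the same gene, the one measure of scatter in these data, had a pooled SD of 0.31 in ATRA against control and 0.30 in ATRA+NIC against ATRA (log2 differences of 7074 genes). It was 0.24 where ATRA+NIC was set against control. This spread can hold true differences between transcripts of a gene as well as measurement error, and says nothing of the spread between cultures. A multiple of it is no test.

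**Figure D1:**
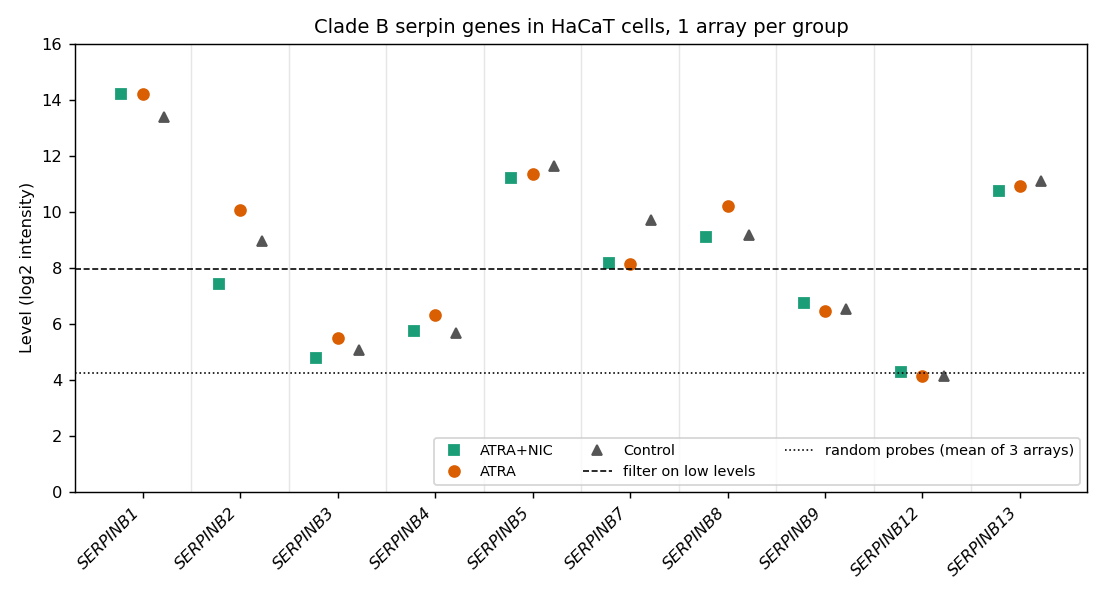
Level of each clade B serpin gene (y axis, log2 intensity) on the ATRA+NIC (squares), ATRA (circles) and control (triangles) arrays, 1 array each, with no error bars because there were no replicates. SERPINB2 and SERPINB8 were highest on the ATRA array, SERPINB7 was highest on the control array, and SERPINB12 lay at the level of the random probes (dotted line).

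In ATRA against control, SERPINB2 and SERPINB8 were at least 2-fold higher and SERPINB7 at least 2-fold lower. Only the 6 genes that passed the filter could be called. That is 2 of these 6 higher, where 3.83% of all 12467 genes passing the filter were higher, and 1 of 6 lower, where 2.06% were lower. In ATRA+NIC against ATRA, SERPINB2 and SERPINB8 were at least 2-fold lower (3.74% of all genes passing the filter) and none was higher (1.35%). In ATRA+NIC against control, SERPINB2 and SERPINB7 were at least 2-fold lower (0.971% of all genes passing the filter) and none was higher (1.03%). The median log2 difference of all 10 genes was 0.21, −0.18 and −0.19 in these 3 comparisons, against −0.03, 0.04 and 0.00 over all 23595 genes. All 3 called genes lay below the 75th percentile of levels on every array, so a filter placed there left 0 calls. Each pair of comparisons shares an array, so a gene high on the ATRA array is by construction likely to be lower in ATRA+NIC against ATRA.

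**Figure D2:**
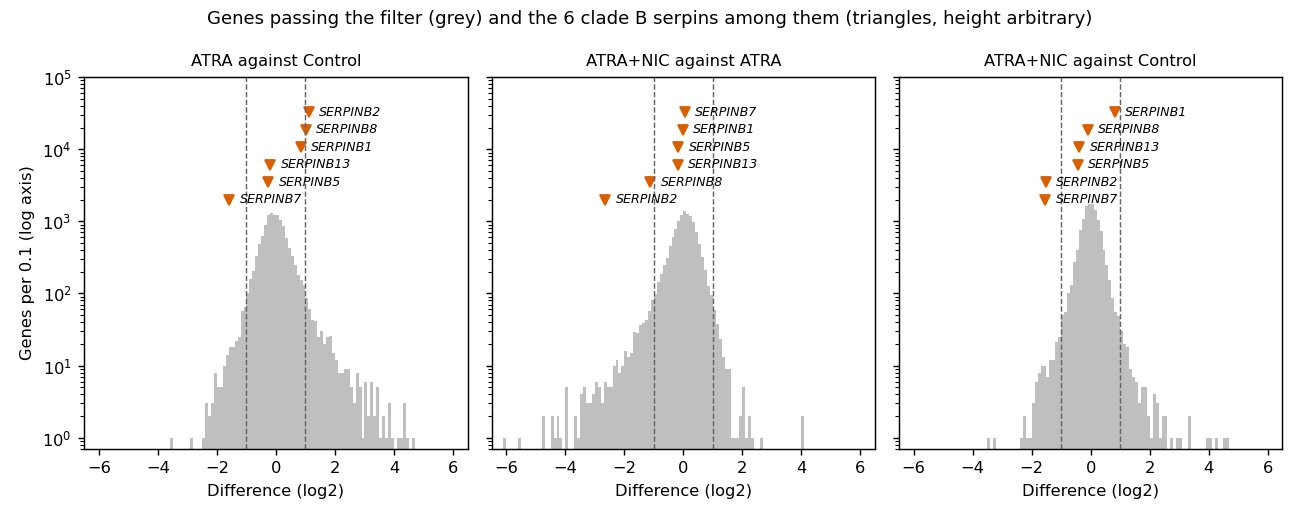
Number of genes (y axis, log scale) by log2 difference (x axis) for the 12467 genes that passed the filter, with the 6 clade B serpins among them marked by triangles at arbitrary heights and dashed lines at 2-fold. SERPINB2 lay furthest from 0 of the 6 in ATRA+NIC against ATRA, at −2.65, and SERPINB7 in the comparisons with the control, at −1.59 for ATRA and −1.55 for ATRA+NIC.

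SERPINB2, also called plasminogen activator inhibitor 2, inhibits urokinase and tissue plasminogen activator. Its single transcript (hg18 chr18:59705921-59722100) had an intensity of 171 with ATRA+NIC, 1070.5 with ATRA and 493 in control cells. The ATRA array was thus the highest and the ATRA+NIC array the lowest of the 3. It was 2.17-fold higher with ATRA than in control cells, 6.26-fold lower with ATRA+NIC than with ATRA, and 2.88-fold lower with ATRA+NIC than in control cells. These log2 differences of 1.12, −2.65 and −1.53 were 3.63, 8.96 and 6.25 times the pooled SD of transcripts. With 1 transcript, the gene had no second reading on the array, and with 100 added to the intensities before log2 the difference from control with ATRA was 0.98, short of 2-fold.

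SERPINB2 is also a product of activated monocytes, so leukocyte markers are given beside it. The single genes given here are a pan-leukocyte gene and lymphocyte genes, none of them particular to monocytes. PTPRC, the pan-leukocyte CD45 gene, had intensities of 18.5 with ATRA+NIC, 151 with ATRA and 33.7 in control cells. The T-cell receptor subunit gene CD3E had 70.6, 501 and 250.6 in the same order, and the B-cell receptor subunit gene CD79A 110.5, 304 and 119. Of the 14 leukocyte markers, 12 were higher with ATRA than in control cells and 11 were lower with ATRA+NIC than with ATRA, as SERPINB2 was. Over all genes the median log2 differences were −0.03 and 0.04 in these comparisons. Only 4 of the 14 passed the filter. Of these 4, 1 was called higher with ATRA than in control cells (3.83% of all genes passing the filter). With ATRA+NIC 2 of the 4 were called lower than with ATRA (3.74%). The B-cell marker MS4A1 stayed under 50 on all arrays. Under 50 were 7 of 14 markers with ATRA+NIC, 3 with ATRA and 7 in control cells. Their part in the SERPINB2 result was not tested. All cultures were of the HaCaT keratinocyte line, so the marker values describe RNA of these cultures and are no count of leukocytes.

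SERPINB8, which inhibits the proprotein convertase furin, had the same order of ATRA over the other arrays, in each of its 3 transcripts (hg18 chr18:59788242-59807588). Transcript BC034528 had an intensity of 648 with ATRA+NIC, 1307 with ATRA and 619 in control cells. NM_001031848 had 652, 1314 and 739 in the same order, and NM_002640 had 383, 954 and 439. The ATRA array was highest in all 3, and the other arrays lay near each other. On the gene level SERPINB8 was 2.01-fold higher with ATRA than in control cells (log2 difference 1.01, SD 0.16 over the 3 transcripts). It was 2.17-fold lower with ATRA+NIC than with ATRA (−1.11, SD 0.18). ATRA+NIC and control differed by −0.11, less than the pooled SD. The value against control stood just past 2-fold, and with the brightest transcript alone it was 0.83 on the log2 scale. With 100 added before log2 the differences were 0.90 and −0.98, both short of 2-fold.

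SERPINB7, or megsin, is an inhibitor of the upper epidermis. It was lower in both retinoid-treated cultures, in both of its transcripts (hg18 chr18:59593623-59623592). Transcript BC069417 had an intensity of 357 with ATRA+NIC, 358 with ATRA and 1129 in control cells, and NM_003784 had 233, 219 and 629. The gene was 3.01-fold lower with ATRA than in control cells (log2 difference −1.59, SD 0.10 over 2 transcripts) and 2.92-fold lower with ATRA+NIC than in control cells (−1.55, SD 0.16). Between ATRA+NIC and ATRA the difference was 0.04, less than the pooled SD of 0.30. SERPINB7 was thus low on both arrays with the retinoid, whereas SERPINB2 and SERPINB8 were highest on the ATRA array.

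**Figure D3:**
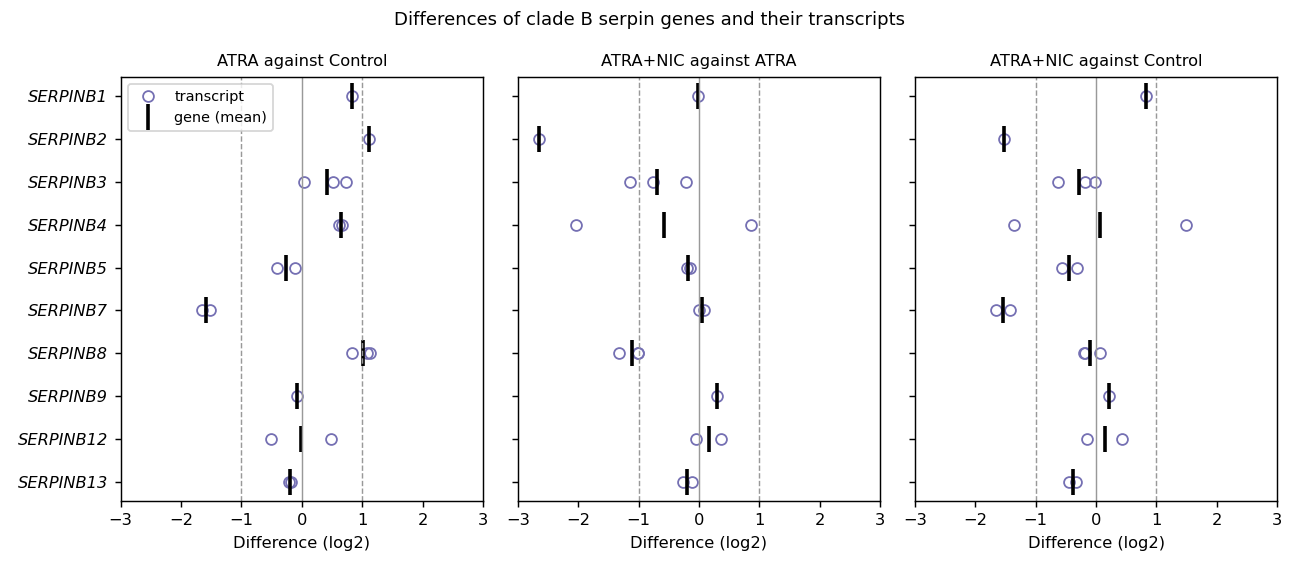
Log2 differences (x axis) of the transcripts (open circles) and the gene level (bars) of each clade B serpin in the 3 comparisons, with dashed lines at 2-fold. The transcripts of SERPINB7 and SERPINB8 lay close together, while those of SERPINB4 lay on opposite sides of 0 in both comparisons of ATRA+NIC.

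The regions before the RefSeq starts (GRCh38.p14) of the 3 genes called at 2-fold are shown because these are the genes that differed most between the cultures. The bases are the 250 before each start, 5′ to 3′ on the + strand. Capitals mark matches on either strand to the AP-1 element TGANTCA, the letters AGGTCA and the TATA box TATAAA. Of the AP-1 element, TGACTCA and its reverse complement are the canonical form. AGGTCA is only a part of a retinoic acid receptor element, and whole elements were not searched for.
SERPINB2 (chr18:63887455-63887704): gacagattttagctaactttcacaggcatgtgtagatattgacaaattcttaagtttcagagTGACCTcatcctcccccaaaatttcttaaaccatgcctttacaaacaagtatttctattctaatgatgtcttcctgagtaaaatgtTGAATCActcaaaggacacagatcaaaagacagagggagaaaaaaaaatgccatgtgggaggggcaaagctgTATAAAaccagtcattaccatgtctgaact
SERPINB8 (chr18:63969831-63970080): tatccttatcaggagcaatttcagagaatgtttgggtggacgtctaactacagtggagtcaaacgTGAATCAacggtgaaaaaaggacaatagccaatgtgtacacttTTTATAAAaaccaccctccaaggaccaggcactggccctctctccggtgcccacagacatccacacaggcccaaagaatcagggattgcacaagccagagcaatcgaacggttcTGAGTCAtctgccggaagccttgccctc
SERPINB7, the second of 3 starts (chr18:63775168-63775417): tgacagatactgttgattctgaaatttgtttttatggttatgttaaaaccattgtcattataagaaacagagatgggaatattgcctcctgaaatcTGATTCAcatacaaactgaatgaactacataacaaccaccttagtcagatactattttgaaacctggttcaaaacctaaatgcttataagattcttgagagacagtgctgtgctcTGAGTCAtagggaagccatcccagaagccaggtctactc
SERPINB7, its last start (chr18:63777531-63777780): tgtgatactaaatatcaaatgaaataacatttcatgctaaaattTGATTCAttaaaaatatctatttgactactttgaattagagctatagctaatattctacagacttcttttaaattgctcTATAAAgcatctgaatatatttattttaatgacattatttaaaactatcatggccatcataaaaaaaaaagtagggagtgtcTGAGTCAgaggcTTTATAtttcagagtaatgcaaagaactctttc

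The search covered 300 bases, 250 before and 50 after each start. SERPINB2 had TGAATCA beginning 102 bases before its start, AGGTCA in reverse 188 bases before it, and a TATA box 30 bases before it. SERPINB8 had TGAGTCA, the reverse complement of TGACTCA, 28 bases before its start and TGAATCA 185 bases before it, with overlapping TATA matches on both strands. SERPINB7 had TGAGTCA 39 bases before its second start and 45 bases before its last, and no match to any of these motifs at its first. So the canonical AP-1 letters stood near the start of 1 gene that was high with ATRA and of 1 that was low. The 10 genes have 13 RefSeq start regions between them, of which SERPINB7 has 3 and SERPINB12 has 2. TGACTCA was found in 4 of the 13, at 2 of the starts of SERPINB7 and in SERPINB8 and SERPINB13, and SERPINB13 was not called. The looser TGANTCA, which includes it, was found in 7 of 13, AGGTCA in 4 and TATAAA in 6. Of all 35116 RefSeq start regions of this length, 4.95% held TGACTCA, 7.71% TGANTCA, 13.8% AGGTCA and 11.5% TATAAA. Regions of 1 gene are not independent of each other. A match describes letters only and shows no binding.

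Of the inhibitors of leukocyte proteases, SERPINB1 blocks neutrophil elastase, cathepsin G and proteinase 3. Its single transcript (hg18 chr6:2778731-2787080) had an intensity of 18933 with ATRA+NIC, 19082 with ATRA and 10678 in control cells. It was 1.79-fold higher with ATRA and 1.77-fold higher with ATRA+NIC than in control cells, short of 2-fold but 2.72 and 3.38 times the pooled SD. The retinoid-treated cultures differed from each other by −0.01 on the log2 scale. SERPINB9, the inhibitor of granzyme B, lay below the filter (hg18 chr6:2832502-2848506). Its intensity was 107 with ATRA+NIC, 87.7 with ATRA and 92.9 in control cells, and none of its 3 differences exceeded the pooled SD. SERPINB6, a further clade B gene of the same chromosome 6 cluster and no member of the 10, was read by 3 transcripts and differed by 0.27 with ATRA and 0.21 with ATRA+NIC from the control, both less than the pooled SD.

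SERPINB5, or maspin, is a clade B protein known as a tumour suppressor that does not inhibit proteases in the usual way. Transcript NM_002639 had an intensity of 4748 with ATRA+NIC, 5442 with ATRA and 5879.9 in control cells, and BC020713 had 1162, 1292 and 1727. Both transcripts had the same order, with control highest and ATRA+NIC lowest. The log2 difference was −0.27 between ATRA and control and −0.17 between ATRA+NIC and ATRA, both less than the pooled SD, and −0.44 for ATRA+NIC against control, 1.80 times the pooled SD. SERPINB13, or headpin, which inhibits cathepsins K and L, had the same order. Transcript BC101821 had intensities of 3504 with ATRA+NIC, 3811 with ATRA and 4412 in control cells, and NM_012397 had 824, 987 and 1121. The differences were −0.20 for ATRA against control, −0.19 for ATRA+NIC against ATRA and −0.39 for ATRA+NIC against control, and the last of them exceeded the pooled SD.

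The squamous cell carcinoma antigens were dim. SERPINB3, an inhibitor of cathepsins L, S and K, was read by 3 transcripts with intensities of 16.1 to 37.3 with ATRA+NIC, 35.3 to 63.1 with ATRA and 24.8 to 39.3 in control cells. All 3 were highest on the ATRA array, but with values under 50 set to 50 the difference between ATRA and control was 1.08-fold. SERPINB4, an inhibitor of cathepsin G and mast cell chymase, gave readings that went apart. AB046400 had 131 with ATRA+NIC, 71.9 with ATRA and 46.8 in control cells, whereas NM_002974 had 21.6, 88.5 and 55.6. Both were higher with ATRA than in control cells, by 1.54-fold and 1.59-fold, but ATRA+NIC was the highest array for the first and the lowest for the second. The SERPINB3 and SERPINB4 genes are near-identical copies: their RefSeq start regions agree at 296 of 300 bases. Signals may be shared between them, so neither gene's difference is certain. SERPINB12, an inhibitor of trypsin-like proteases, had intensities of 12.4 to 24.9 over its 2 transcripts and 3 arrays, near the level of the random probes. SERPINB10 and SERPINB11, the remaining clade B genes measured, lay between 15.3 and 29.3.

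By position, 8 of the 10 genes lie in 1 cluster on chromosome 18 (hg18 chr18:59295170-59807588) and 2 in a cluster on chromosome 6. Called genes of the chromosome 18 cluster went in both directions with ATRA, and SERPINB2 and SERPINB7 are separated there by no other gene of the 10. Of 14 other gene names listed for that region of chromosome 18, 13 were measured, 6 passed the filter and none was called in any comparison. In ATRA against control, 3.83% of all genes passing the filter were called higher and 2.06% lower. So 0 of 6 is near the general share. Among those 6, the greatest differences of ATRA against control were −0.70 for RNF152, a ubiquitin ligase gene, and 0.56 for PHLPP1, a phosphatase gene. RNF152 was 1.98-fold lower with ATRA+NIC than in control cells, just short of a call. Of 15 genes listed near the chromosome 6 cluster, 11 passed the filter and 1 was called with ATRA against control. This was FOXC1, a forkhead transcription factor gene, at 2.05-fold higher with ATRA than in control cells.

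The genes of proteases that clade B serpins are known to inhibit were set beside them. Of 16 measured, 10 passed the filter. With ATRA 3 were at least 2-fold higher than in control cells and 0 lower (3.83% and 2.06% of all genes passing the filter). With ATRA+NIC 0 were higher and 1 lower than with ATRA (1.35% and 3.74%). PLAU, the urokinase gene and a target of SERPINB2, had intensities of 5339 with ATRA+NIC, 17198 with ATRA and 4308 in control cells. It was 3.99-fold higher with ATRA than in control cells and 3.22-fold lower with ATRA+NIC than with ATRA. PLAT, the tissue plasminogen activator gene, had 5504, 10273 and 3753, or 2.74-fold higher with ATRA than in control cells and 1.87-fold lower with ATRA+NIC than with ATRA. Like SERPINB2, both were highest on the ATRA array. Unlike SERPINB2, they were not below the control with ATRA+NIC, at 1.24-fold and 1.47-fold higher.

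CTSS, the cathepsin S gene, was 2.06-fold higher with ATRA than in control cells, and 1.78-fold with values under 50 set to 50. CTSK, the cathepsin K gene and a target of SERPINB13, had intensities of 569 with ATRA+NIC, 328 with ATRA and 609.7 in control cells, lowest on the ATRA array. FURIN, the target of SERPINB8, differed by 0.06 with ATRA against control and by −0.16 with ATRA+NIC against ATRA, both less than the pooled SD, while SERPINB8 differed by 1.01 and −1.11. CTSL, the cathepsin L gene, differed by 0.28 and −0.38. The leukocyte protease genes CTSG and GZMB, and also ELANE, PRTN3 and CMA1, did not reach the filter on any array.

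**Figure D4:**
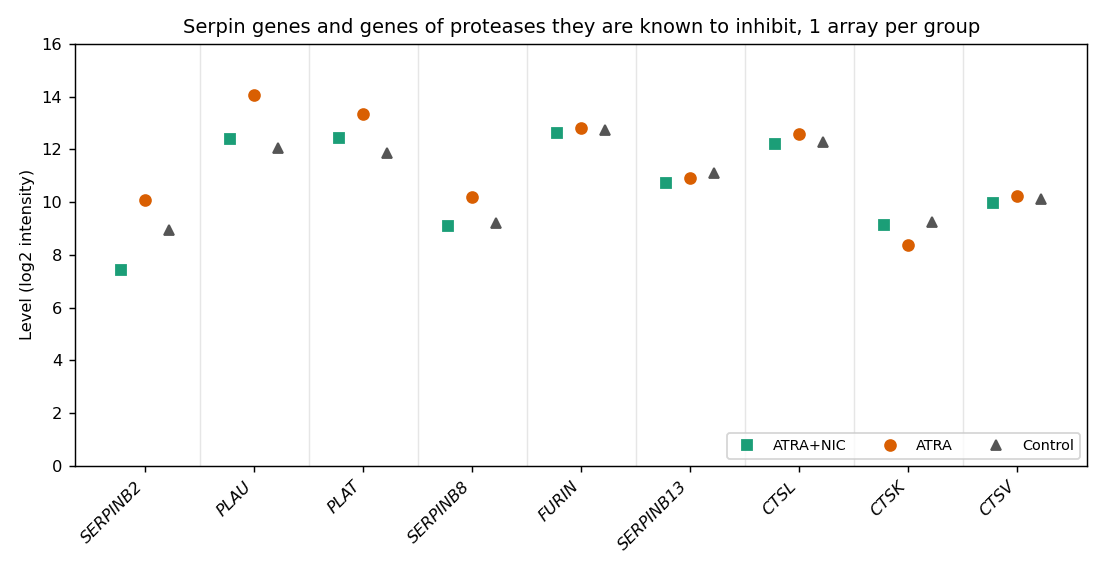
Level (y axis, log2 intensity) on the ATRA+NIC (squares), ATRA (circles) and control (triangles) arrays of serpin genes and of protease genes they are known to inhibit, 1 array each. SERPINB2, PLAU and PLAT were highest on the ATRA array, CTSK was lowest there, and FURIN lay near the same level on all 3.

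Other inhibitor families also held called genes. Of 22 serpin genes of other clades measured, 6 passed the filter. Against control, 2 were called higher with ATRA (3.83% of all genes passing the filter), as among the 6 clade B genes. These were SERPINA3, an inhibitor of cathepsin G, at 12.3-fold, and SERPINF2, the plasmin inhibitor, at 2.06-fold. SERPINA3 was 3.39-fold lower with ATRA+NIC than with ATRA. In that comparison 2 of these 6 genes were at least 2-fold lower and 0 higher, the same counts as among the 6 clade B genes. Of 19 further protease inhibitors of the epidermis, 11 passed the filter. TIMP3, a metalloproteinase inhibitor, was 2.67-fold higher with ATRA than in control cells, and PI3, the elastase inhibitor elafin, was 2.08-fold lower with ATRA+NIC than with ATRA. Of 19 epidermal proteases, 18 passed. Of these, 5 were called higher and 1 lower with ATRA than in control cells (3.83% and 2.06% of all genes passing the filter). The kallikrein gene KLK6 led at 3.79-fold. None of these 18 was called in ATRA+NIC against ATRA. Of all genes passing the filter, 1.35% were higher and 3.74% lower in that comparison, so 0 of 18 is near the general share.

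The genes whose levels followed each called serpin most closely over the 3 arrays were found by the Euclidean distance of levels taken relative to their own mean. Nearest to SERPINB7, among 6878 genes with at least 2 transcripts, was KRT5, the basal keratin gene, at a distance of 0.034 on the log2 scale. KRT5 was 2.96-fold lower with ATRA and 2.97-fold lower with ATRA+NIC than in control cells. Its 2 transcripts lay apart, with an SD of 0.59 in ATRA against control, so the closeness holds for their mean. Second was MMP2, the gelatinase A gene, at 0.050. Nearest to SERPINB8 were FHL2, a LIM-domain protein gene, at 0.014, and CD83, a surface protein gene of mature dendritic cells, at 0.015. Nearest to SERPINB2, among 6879 genes, were NDRG1, a stress-responsive gene, at 0.091, and the chemokine gene CCL4L1, which has near-identical copies, at 0.19. NDRG1 was 2.23-fold higher with ATRA than in control cells and 6.83-fold lower with ATRA+NIC than with ATRA. All these distances were smaller than the pooled SD of transcripts in any comparison, so the order of the nearest genes is not certain. With 3 arrays, likeness of this kind is a description of these cultures.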

How the data were processed

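RNA of 3 HaCaT cultures was measured on single-colour NimbleGen arrays. The deposited values are intensities on a linear scale, RMA gene calls (background correction, normalization across arrays and probe summary) per the file headers and labels; no software is named in them. They were used unscaled, as log2 values. The authors' value table, also intensities, holds the 31275 transcripts reaching 50 on all 3 arrays and served as an alternative.

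Coordinates are those of the files (hg18). Of 45033 transcripts, 2086 without a gene name were left out. Symbols were updated by gene number through RefSeq (GRCh38.p14), which also gave the start regions, found for all 10 genes. A gene's level was the mean log2 intensity of its transcripts. The filter was the median of all genes and arrays, and a call needed 2-fold. Where a low value set the fold, intensities under 50 were also set to 50. With 1 array per group there was no test and no p-value, and the number of arrays limits the precision.

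Named were all members, the called genes of each list (at most 5) or its 2 greatest differences. Also named were the 2 nearest genes of each called member. Protease genes without a call were named for their known pairing, after their values were seen. The leukocyte markers PTPRC, CD68 and MS4A1 were likewise named outside this rule. A gene that this rule also takes is not reported here. The members and lists were chosen with earlier results of these data known. Alternatives changed the transcript summary, filter, offset, floor, centring and table. Calculations used Python 3.11.15, pandas 2.3.3 and numpy 2.4.6, and the steps were tested on simulated data.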

Additional observations from a re-analysis of the deposited data

How the results depend on the processing

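No paired analysis was possible because each group holds 1 array and no result comes from a test. Over 9 alternatives, the differences of single members never changed sign where they were called. The members called remained SERPINB2, SERPINB7 and SERPINB8, with these exceptions. With a filter at the 75th percentile, which none of the 3 reached, 0 members were called in each comparison, and all genes called numbered 308 (ATRA against control), 269 (ATRA+NIC against ATRA) and 92 in the comparison of ATRA+NIC with control. With 100 added before log2, 1 member was called for ATRA against control (SERPINB7, with SERPINB2 at 0.98 and SERPINB8 at 0.90) and 1 for ATRA+NIC against ATRA (SERPINB2, with SERPINB8 at −0.98), and all genes called numbered 481, 408 and 143. SERPINB8 also fell short of 2-fold for ATRA against control with an offset of 16 (0.99) and with the brightest transcript (0.83). Without a filter all genes called numbered 1756, 1701 and 1039, and with the value table of the authors as input these counts were 445, 399 and 147, because more or fewer genes were counted. That table lacks SERPINB3, SERPINB4 and SERPINB12, and over its 7 members the median for ATRA against control was −0.08 instead of 0.21. With the brightest transcript SERPINB4 was 0.87 higher with ATRA+NIC than with ATRA, against −0.59 on the gene level. Signal over background limits SERPINB3, SERPINB4 and SERPINB12, whose transcripts each lay under an intensity of 50 on at least 1 array.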
